A study of Mus musculus with 6 samples.

Results

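Retained intron transcripts are annotated transcripts of a gene in which sequence that other transcripts splice out is kept inside an exon. The set described here holds the 3238 transcripts whose annotated type is retained intron and whose mean over the 6 libraries was at least 1 FPKM (fragments per kilobase of transcript, scaled to the depth of the library). They were 14.8% of the 21919 retained intron transcripts in the table of 142604 transcripts, and 15.4% of the 21041 transcripts of every type at that level. They were thus chosen by their measured mean level over all 6 libraries. A member could still reach that mean through 1 group alone. That of Bap1 averaged 2.09 FPKM in cold water and 0.113 FPKM in control, and that of Fer1l6 0.448 and 2.15 FPKM. The 3 transcripts just above the minimum were those of Trim28, Tmbim1 and Abcf3, and the 3 just below were those of Rfc3, Tmem190 and Rps3, all at 1 FPKM after rounding.

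The 6 libraries were made from mouse tissue labelled as proximal jejunum, although the series' design text names colon. In the cold water group (n = 3) mice received 1 ml of water at 0 to 4 °C into the stomach at 8 am each day for 14 days. In the control group (n = 3) mice received 1 ml at 20 to 25 °C at 9 am for the same 14 days, so the hour of dosing differed along with the temperature and the effects of both cannot be told apart. All mice were housed at 22 °C, and no strain, sex or age is given in the labels. Nothing in the labels says that each library came from a separate animal, so p-values measure the spread between these libraries, which may be technical.

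Splicing removes introns from a new transcript, and a transcript that keeps an intron is often held in the nucleus or destroyed by nonsense-mediated decay, since a retained intron commonly brings in a stop codon. Genes for splicing factors themselves are known for such introns, and the Clk kinases, which phosphorylate the SR splicing factors, keep introns that are spliced out in response to stress, as described in cultured cells. The libraries were made from total RNA depleted of ribosomal RNA, so unfinished transcripts could enter them along with mature mRNA.

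Total estimated counts were 72690433 to 78668871 per library, or about 19306900 to 20894800 fragments. All 9 small intestinal enterocyte markers and all 5 Paneth cell markers reached 1 FPKM, none of the 3 ileum markers did, and 3 of 7 colonocyte markers did. The summed level of 7 B and plasma cell markers was 4635 FPKM in cold water library 1, against 1217 to 1875 FPKM in the other 5 libraries, and that of 5 smooth muscle markers ran from 277.8 to 1082 FPKM in cold water and from 142.5 to 1342 FPKM in control. The part of these differences in the results below was not tested. In tissue, fewer cells of a type and less RNA per cell cannot be told apart.

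Of the 3231 members found in the GENCODE M21 annotation of the mouse genome build GRCm38, 3226 had identical coordinates, so positions are given in that build. In 1362 of them (42.2%) a whole intron of a protein-coding transcript lay inside an exon, in 1810 an exon ran into part of an intron, 44 belonged to genes without a coding transcript and 15 fell in neither class. Whole introns were found in 28.6% of retained intron transcripts below 1 FPKM and in 18.8% of those at a count of 0 in all 6 libraries. The members with a whole intron kept 2057 distinct introns, 910 of them keeping 1 and the others 2 to 18.

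The introns kept had a median length of 218 bases (quartiles 102 and 506), against 468 bases (quartiles 148 and 1370) for the 10044 other introns of the same 1324 coding transcripts. Introns kept by retained intron transcripts below 1 FPKM had a median of 287 bases, and those at a count of 0 had 268 bases, so they too lay below 468. Their median GC content was 53.3%, against 51.0% in introns of the retained intron transcripts below 1 FPKM and 49.4% in those at a count of 0. Of the 2057, 2008 (97.6%) began with GT and ended with AG, 31 with GC and AG, and 4 with AT and AC. The coding frame could be read through 1924 introns, and 1682 of them (87.4%) held a stop codon in frame, close to the 88.8% below 1 FPKM and the 92.4% at a count of 0.

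The introns below are shown because the transcripts that keep them are among those with the smallest p-values for a difference in share, as described further on. Each is read from the GENCODE M21 transcript sequences, 5′ to 3′ on the coding strand, with capitals at the first and last pair of bases and at the first stop codon in frame, which in Spns1 overlaps the first pair. Introns are numbered from the 5′ end of a coding transcript, which for Gpt is ENSMUST00000229679. Intron 9 of 11 of Gpt, 106 bases, lies at chr15:76698890-76698995 on the plus strand.
Gpt intron 9: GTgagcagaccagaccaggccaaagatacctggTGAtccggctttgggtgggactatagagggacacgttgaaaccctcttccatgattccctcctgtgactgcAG
Intron 4 of 11 of Spns1, 85 bases, lies at chr7:126373837-126373921 on the minus strand.
Spns1 intron 4: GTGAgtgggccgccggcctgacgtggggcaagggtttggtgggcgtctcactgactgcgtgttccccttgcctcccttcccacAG
Introns 2 and 6 of 9 of Ric8a, 89 and 100 bases, lie at chr7:140857893-140857981 and chr7:140860973-140861072 on the plus strand, and are kept by different transcripts.
Ric8a intron 2: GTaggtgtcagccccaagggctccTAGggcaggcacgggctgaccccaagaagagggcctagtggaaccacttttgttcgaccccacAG
Ric8a intron 6: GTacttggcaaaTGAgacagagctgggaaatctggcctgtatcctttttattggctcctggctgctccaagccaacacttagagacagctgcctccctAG
Intron 6 of 11 of Pigq, 277 bases, lies at chr17:25931828-25932104 on the minus strand.
Pigq intron 6: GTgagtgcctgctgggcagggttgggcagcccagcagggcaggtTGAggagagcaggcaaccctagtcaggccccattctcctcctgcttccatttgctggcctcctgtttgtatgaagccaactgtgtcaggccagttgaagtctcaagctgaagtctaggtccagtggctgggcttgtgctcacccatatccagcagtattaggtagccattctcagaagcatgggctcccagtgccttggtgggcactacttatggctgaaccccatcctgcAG
In all 5 the first stop codon in frame starts within the first 45 bases.

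The 3238 members came from 2160 genes, of which 1462 had 1 member, 460 had 2, 149 had 3 and 89 had 4 or more. Gas5, a noncoding host gene of small nucleolar RNAs, had 13. The median of the members' mean levels was 2.24 FPKM, 350 members reached 10 FPKM and 20 reached 100 FPKM. For each member the share is its estimated count as a percentage of the summed count of its gene in that library, which weighs long transcripts more than short ones. The mean share over the 6 libraries had a median of 6.13% and quartiles of 1.93% and 19.3%, with 443 members under 1%, 212 at 50% or above and 12 at 90% or above. A member was the leading transcript of its gene in all 6 libraries in 136 cases and in at least 1 library in 722.

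The retained intron type as a whole took 3.73%, 3.80% and 3.83% of the total count in the cold water libraries, against 3.97%, 4.06% and 3.45% in control. The means were 3.79% ± 0.0509 in cold water and 3.83% ± 0.328 in control (SD, n = 3 each), and the groups overlapped. The 2-sided exact permutation test gave p = 1, and 3 libraries against 3 cannot give less than 0.1. The median share of the members was 4.87%, 5.597% and 5.45% in cold water and 4.41%, 5.01% and 4.91% in control, also overlapping.

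**Figure D1:**
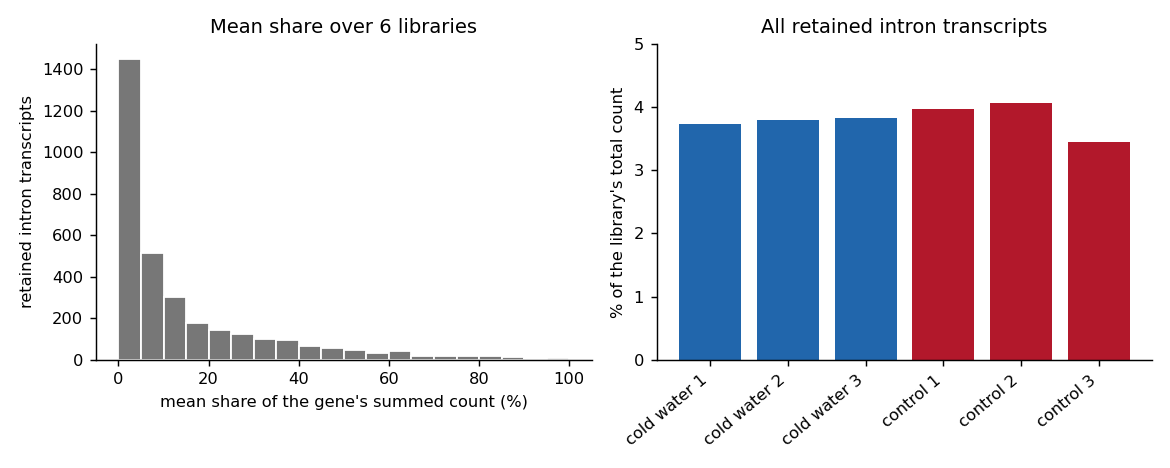
Left, number of retained intron transcripts by mean share of the gene's summed count over the 6 libraries, in percent. Right, the percentage of each library's total count given to all retained intron transcripts, 1 bar per library; the cold water bars lie between 3.73% and 3.83%, and the control bars between 3.45% and 4.06%.

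The most abundant members belonged to abundantly expressed genes. Rps26, a protein of the small ribosomal subunit, had the highest, ENSMUST00000219591, at 585, 503 and 327 FPKM in cold water and 695, 646 and 502 FPKM in control. Its share was 56.6%, 76.1% and 61.6% in cold water and 74.3%, 72.1% and 70.01% in control. It led its gene in every library, and the groups overlapped on both measures. Sis, the sucrase-isomaltase of the brush border, came next: ENSMUST00000170445 stood at 277, 269 and 256 FPKM in cold water and 418, 370 and 394 FPKM in control. Here the groups did not overlap, and neither did the shares, at 14.6%, 15.8% and 15.3% in cold water and 25.0%, 24.2% and 17.7% in control. The difference did not pass the test of shares described below (log2 odds difference -0.66, SE 0.37, limma adjusted p = 0.893), nor that of abundance (edgeR adjusted p = 0.803). The remaining 8 of the 10 most abundant belonged to Anxa2, 2200002D01Rik, Atp5b, Fth1, Rpl10a, Calm2, Ppia and Reg3b, at means of 187 to 295 FPKM. Several of these genes, among them Rps26, Rpl10a, Fth1, Ppia and the calmodulin genes, have near-identical copies elsewhere in the genome, between which counting can split reads, so their values are uncertain. Calm2, a calmodulin gene, had a share of 47.8% ± 5.73 in cold water and 48.4% ± 5.43 in control (SD, n = 3 each).

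Some members held nearly all of their gene's estimated count and others a trace of it. Among genes averaging at least 100 counts, the highest mean shares were those of Fam221b, Nphs1, Uchl1, Gm43305, Nudt8, Olfr56, Coprs, Npff, Chpf and Mrpl53. The members of Olfr56, Mrpl53 and Nudt8 overlap Ifi47, Gm42688 and Gm49405 on the same strand. That of Nphs1 overlaps Rps12-ps4 on the opposite strand. Which gene the reads in these overlaps came from cannot be told. In Fam221b the share rounded to 100% in each of the 6 libraries, and in Uchl1, a ubiquitin hydrolase of neurons, it was 99.2%, 99.7% and 99.2% in cold water and 99.7%, 98.8% and 99.3% in control. The lowest were those of Selenop, Gna11, Eef2, Atp1b1 and Ldha, genes whose RNA is abundant. Selenop, a secreted selenium carrier, had 0.00851%, 0.0235% and 0.0219% in cold water and 0.0112%, 0.0107% and 0.0169% in control.

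To ask whether the division of a gene's RNA differed between the groups, limma was fitted to the log2 odds of the share for all 18433 transcripts of at least 1 FPKM in genes with more than 1 transcript above 0. The fit called 44 of the 18433 (0.239%) at an adjusted p of 0.05, with 0.125% higher and 0.114% lower in cold water. Among the 3237 members tested it called 1, which was higher in cold water. The member without a share test, of Gm20427, was the only transcript of its gene above 0. Without the adjustment, 69 members were higher and 46 lower at a p of 0.05, together 115 of 3237, where 4.94% of all transcripts tested passed. The median log2 odds difference was 0.07 over members, with 1771 higher and 1466 lower, and -0.01 over all transcripts tested.

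The member called was ENSMUST00000229340 of Gpt, the gene of alanine aminotransferase 1, which moves the amino group of alanine to 2-oxoglutarate. It runs over chr15:76696736-76699648 on the plus strand, with 1794 bases in 10 exons, and keeps intron 9, whose sequence is printed above. Its level was 40.9, 36.3 and 89.3 FPKM in cold water, and its estimated count was 0 in all 3 control libraries. Its share was 32.6%, 25.5% and 52.3% in cold water and 0 in each control library. The log2 odds difference was 11.71 (SE 0.557), with a limma adjusted p of 0.00335. A floor of 3 fragments per control library was 0.0421% to 0.0543% of the gene's count. The mean share in cold water was 767 times the mean of these floors. On abundance it stood at 116 ± 69.1 CPM (counts scaled to the library total) in cold water (SD, n = 3). That mean was 754 times the mean floor, but edgeR's quasi-likelihood test did not call the transcript (adjusted p = 0.183). The share call was lost on 2 other scales, with limma adjusted p-values of 0.0846 for the arcsine of the square root of the share and 0.442 for the untransformed share. The call was also lost when the replicate number was fitted as a block.

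The sum over all Gpt transcripts was 228, 282 and 376 CPM in cold water, against 354, 261 and 338 CPM in control. The groups overlapped, and the gene's log2 difference was -0.10 (edgeR adjusted p = 0.977). The coding transcripts varied among the control libraries. ENSMUST00000023203 held 14.6%, 10.1% and 14.7% of the gene in cold water and 26.1%, 58.8% and 10.98% in control. ENSMUST00000229679 was above 0 in control library 3 only, at 20.6%. A count of 0 for a transcript of an expressed gene was thus not limited to the member called.

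Because 4 retained intron transcripts of Gpt keep intron 9, their counts were summed and set against those of the 3 transcripts that splice it exactly. By that measure intron 9 was kept in 45.6%, 40.7% and 63.1% of the estimated count in cold water, against 18.4%, 17.99% and 15.7% in control. The groups did not overlap. The other 3 transcripts that keep it, ENSMUST00000230482, ENSMUST00000230283 and ENSMUST00000229856, had mean shares of 5.09%, 5.62% and 1.97% in cold water and 7.68%, 7.11% and 2.57% in control, so the difference rests on ENSMUST00000229340. Of the 8 other introns kept by any Gpt transcript, intron 4 was lower in cold water without overlap, at 7.74%, 10.8% and 6.43% against 19.4%, 11.7% and 11.4% in control. The other 7 overlapped between the groups.

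**Figure D2:**
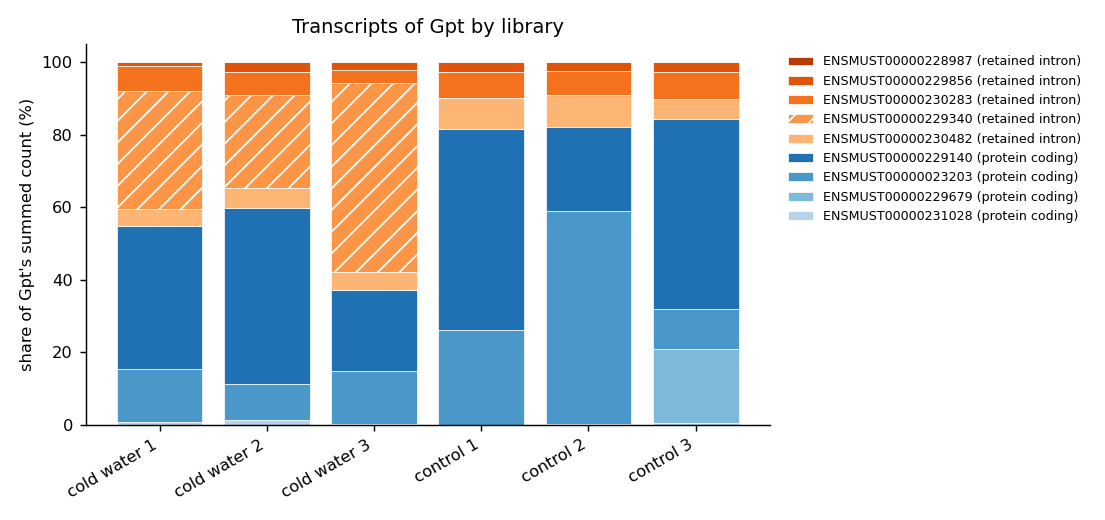
Share of each Gpt transcript in the gene's summed count, in percent, 1 stacked bar per library; orange parts are retained intron transcripts and blue parts coding ones. The hatched part, ENSMUST00000229340, is 25.5% to 52.3% in the cold water libraries and 0 in the control libraries.

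**Figure D3:**
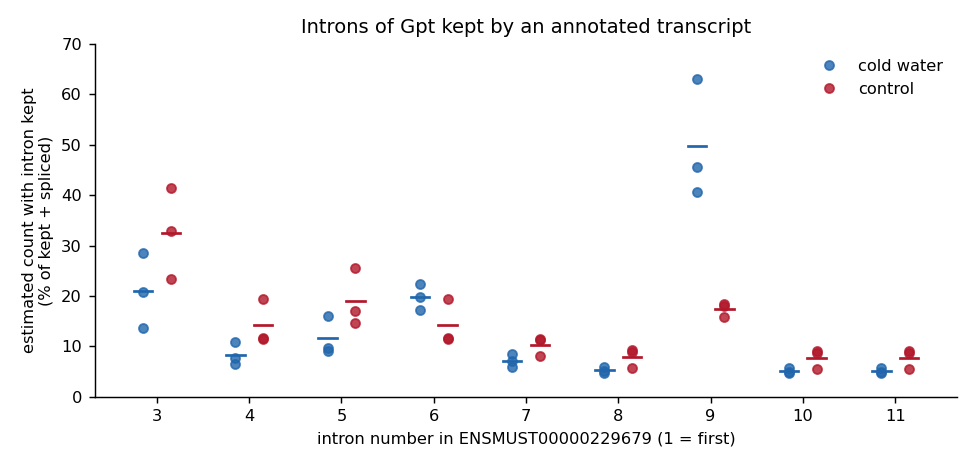
For each Gpt intron kept by an annotated transcript, the estimated count of transcripts that keep it as a percentage of those that keep or splice it; points are libraries and lines group means. Intron 9 is at 40.7% to 63.1% in cold water and 15.7% to 18.4% in control.

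Abundance gave no member past the threshold. edgeR's quasi-likelihood test on the transcripts' counts called 6 of the 21041 transcripts (0.0285%) at an adjusted p of 0.05 and 0 of the 3238 members. Unadjusted, 95 members were higher and 60 lower at a p of 0.05, together 155 of 3238, where 4.73% of all transcripts tested passed. DESeq2 called 87 members and limma on log2(FPKM + 1) called 1. Their counts over all transcripts are not given here, so these numbers cannot be set against a rate. Among the 2160 genes with a member, edgeR called 1 on the summed count, Ap1ar, where 5 of all 12939 genes tested were called (0.0386%). DESeq2 called 8 of the 2160, and its count over all genes is not given here. The call of Ap1ar was lost when any of the 6 libraries was left out.

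Shares of the cold water and control libraries did not overlap for 429 of the 3237 members (13.3%), 254 higher and 175 lower, against 11.9% of all transcripts tested. Higher shares without overlap made up 7.85% of members and 5.85% of all transcripts tested, and lower ones 5.41% and 6.04%. The members described next are among those with the smallest limma p on either side. Apart from Gpt none passed the threshold, and their adjusted p-values were 0.127 to 0.659. Several, among them Gpt, Bap1 and Fer1l6, averaged under 1 FPKM in 1 group and reached the minimum through the other.

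Spns1, a transporter of lysophospholipids out of lysosomes, had 1 member that led the gene in all cold water libraries and in no control library. ENSMUST00000126810 took 85.3%, 81.9% and 76.6% in cold water and 41.2%, 42.4% and 29.96% in control (log2 odds difference 2.85, SE 0.44, limma adjusted p = 0.203). The coding transcript ENSMUST00000032994 stood the other way, at 10.7%, 9.84% and 12.4% in cold water and 49.1%, 47.8% and 59.4% in control. Intron 4, printed above, was kept in 87.8%, 85.8% and 78.4% of the count in cold water and in 42.5%, 43.6% and 30.8% in control. The summed Spns1 count was 34.9 ± 5.00 CPM in cold water and 37.9 ± 5.601 CPM in control (SD, n = 3 each), and these overlapped.

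Ric8a, a chaperone of G protein alpha subunits, had members on both sides. ENSMUST00000123925, which keeps intron 2, held 76.8%, 65.7% and 66.3% in cold water and 10.9%, 30.5% and 23.3% in control (log2 odds difference 3.18, SE 0.61, limma adjusted p = 0.369). ENSMUST00000131850, which keeps introns 6, 7 and 8, held 8.55%, 12.9% and 10.5% in cold water and 36.8%, 34.8% and 28.9% in control (log2 odds difference -2.08, SE 0.39, limma adjusted p = 0.357). The leading transcript was thus a retained intron transcript in both groups, but not the same one, and shares within a gene are not independent. The summed Ric8a count was 44.1 ± 3.09 CPM in cold water and 31.5 ± 0.934 CPM in control (SD, n = 3 each), without overlap and not called (edgeR adjusted p = 0.878). Counted by intron, intron 2 was kept in 89.8%, 78.66% and 80.96% in cold water and 36.4%, 50.4% and 48.5% in control. Intron 6 was kept in 8.91%, 13.6% and 10.9% in cold water and 38.6%, 36.8% and 30.3% in control.

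Members of 2 genes of the response to interferon stood among these. Xaf1, an interferon-induced partner of the apoptosis inhibitor XIAP, had 25.6%, 26.1% and 25.7% of its count in ENSMUST00000142921 in cold water, against 4.51%, 4.06% and 7.47% in control (log2 odds difference 2.66, SE 0.41, limma adjusted p = 0.199). That transcript averaged 4.72 CPM in cold water and 4.15 CPM in control, while the gene's sum was 17.9 ± 2.65 CPM in cold water and 69.8 ± 36.4 CPM in control (SD, n = 3 each). The member's own level thus overlapped between the groups, and edgeR did not call the gene's log2 difference of -1.96 (adjusted p = 0.878). Psmb10, an immunoproteasome subunit, was lower, at 11.8%, 7.33% and 17.4% in cold water and 29.8%, 35.1% and 40.1% in control. In FPKM the Psmb10 transcript stood at 20.4, 10.6 and 23.8 in cold water and 76.1, 82.0 and 84.2 in control, without overlap (edgeR adjusted p = 0.471). The summed Psmb10 count was 163 ± 7.59 CPM in cold water and 248.5 ± 20.9 CPM in control (SD, n = 3 each), also without overlap.

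A further 7 with higher shares ran from a trace to most of the gene. Ankrd16, an ankyrin repeat protein, had 14.7%, 23.8% and 23.0% in cold water and 2.62%, 1.299% and 2.28% in control, the smallest adjusted p after Gpt (limma, 0.127). Bap1, a nuclear deubiquitinase, had 31.2%, 19.1% and 14.2% in cold water and 6.33%, 1.40% and 1.84% in control. Hspa8, the constitutive Hsp70 chaperone, had 2.62%, 1.39% and 1.14% in cold water and 0, 0.115% and 0.0295% in control. In Hspa8 and in Arpc1b, a subunit of the actin-nucleating Arp2/3 complex, the member remained under 5% in every library. Cnot3, of the CCR4-NOT deadenylase complex, had 44.4%, 18.1% and 14.98% in cold water and 1.44%, 0 and 0 in control. Mybbp1a, a nucleolar protein, ranged from 5.91% to 69.2% in cold water and from 0 to 0.510% in control. The members of Cnot3, Mybbp1a and Ankrd37 overlap Leng1, Spns2 and Ufsp2 on the opposite strand, and as the strandedness of the libraries is not given in the sources used here, reads of the overlapping genes cannot be told apart.

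Among the lower shares, the members of Bscl2, Fer1l6 and Trappc6b and the larger of Gtf2a2 led their gene in all control libraries and no cold water library. Pigq, of the first step of GPI anchor synthesis, had 54.3%, 46.6% and 30.5% in ENSMUST00000148045 in cold water and 81.3%, 89.9% and 76.7% in control, and intron 6, printed above, was kept in 57.4%, 48.2% and 32.7% of the count in cold water and 82.6%, 93.4% and 79.0% in control. Bscl2, which encodes the lipid droplet protein seipin, had 27.8%, 20.6% and 13.5% in cold water and 54.8%, 43.7% and 66.9% in control. Counted by intron, intron 1 of Bscl2 overlapped between the groups, at 40.2%, 100% and 27.6% in cold water and 78.0%, 58.7% and 100% in control. Trappc6b, of the TRAPP vesicle tethering complex, had 13.4%, 16.6% and 8.65% in cold water and 44.0%, 37.6% and 52.6% in control. Gtf2a2, the small subunit of the transcription factor TFIIA, had 2 such members, the larger at 6.90%, 20.7% and 7.14% in cold water and 38.5%, 51.2% and 40.5% in control. Nae1, a subunit of the NEDD8-activating enzyme, had 6.18%, 11.3% and 6.21% in cold water and 25.9%, 29.0% and 21.6% in control. In Fer1l6, Flvcr1 and Dus3l the cold water shares were 1.49% to 29.9% and the control shares 17.1% to 78.5%. Introns 7 and 8 of Dus3l, kept by its member, overlapped between the groups when counted by intron. Nudt8 shares its strand with Gm49405 and remained at 94.3% or above in every library.

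**Figure D4:**
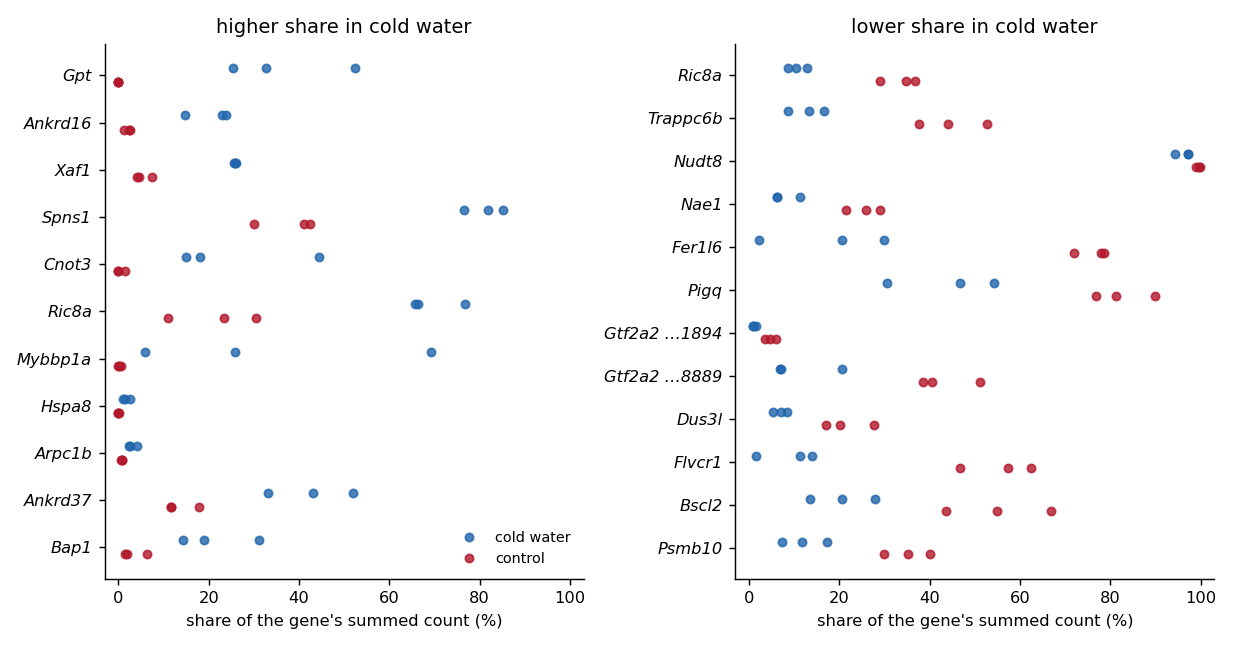
Share of the gene's summed count, in percent, for members among those without overlap between cold water and control libraries that have the smallest limma p; each point is a library, cold water above control. Left, 11 members higher in cold water; right, 12 lower; of the 23 only Gpt passed the threshold.

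A member led in all 3 cold water libraries and no control library in H2-Q5, Ltb4r2, Ric8a, Spns1, Tkt and Tnnt1. The reverse held in Bscl2, Fer1l6, Gtf2a2, Pfkfb2, Pgghg, Ric8a, Rsrp1 and Trappc6b. The numbers over all transcripts tested are not given here, so these lists are not read as a trait of this type. In Tkt, the transketolase of the pentose phosphate pathway, the member held 50.7%, 55.2% and 54.6% in cold water and 31.6%, 4.47% and 28.5% in control. In Pfkfb2, which sets the level of fructose 2,6-bisphosphate, it held 19.5%, 21.002% and 19.9% in cold water and 42.8%, 50.3% and 34.5% in control. Neither passed the threshold (limma adjusted p = 0.893 for Tkt and 0.734 for Pfkfb2).

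Introns kept were also counted one by one over the 2057. Transcripts of any type that hold the intron in an exon were summed, so the percentages are not retention by retained intron transcripts alone. The median percentage of the count that kept the intron was 21.5% in cold water and 21.5% in control. Groups did not overlap for 131 introns higher in cold water and 118 lower, together 12.1%, close to the 11.9% of all transcripts tested whose shares did not overlap.

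Among members of the genes that carry out and steer splicing, none was called. Over all members 54.7% had a higher share in cold water, and the lists are set beside that without a test of the difference. Of 17 members in 9 SR protein genes, which mark exons for the spliceosome, 13 were higher and 4 lower, with a median log2 odds difference of 0.20. Of 31 hnRNP members, whose proteins coat new transcripts, 22 were higher and 9 lower (median 0.34), and of 50 core spliceosome members 32 were higher and 18 lower (median 0.30). Of 13 members of the kinases and phosphatases of splicing factors, 9 were higher and 4 lower (median 0.18). The 7 minor spliceosome members divided 3 and 4 (median -0.01), where all members had a median of 0.07. Groups did not overlap for 2 SR protein members, 3 hnRNP members and 9 core spliceosome members on the higher side, and for 0, 0 and 1 on the lower side. Both sides together made 11.8% of SR protein, 9.68% of hnRNP and 20.0% of core spliceosome members, where 13.3% of all members and 11.9% of all transcripts tested did not overlap. The nuclear noncoding RNAs Malat1 and Neat1 were measured beside them. Malat1 stood at 22.6, 30.6 and 23.9 FPKM in cold water and 19.1, 24.2 and 17.8 FPKM in control, and Neat1 at 46.5, 79.3 and 98.5 FPKM in cold water and 60.8, 43.6 and 45.8 FPKM in control. Both overlapped between the groups, and their part in the shares was not tested.

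Clk1, the kinase whose retained introns are the best known of this group, had 9.81%, 7.90% and 9.33% of its count in ENSMUST00000129577 in cold water and 4.46%, 7.34% and 5.67% in control. The groups did not overlap, but the difference was not called (log2 odds difference 0.69, SE 0.39, limma adjusted p = 0.893). Another Clk1 member, ENSMUST00000123580, was lower without overlap, at 15.6%, 16.2% and 17.6% in cold water and 19.5%, 19.1% and 19.9% in control. The introns kept by Clk1 transcripts overlapped between the groups when counted by intron, at 24.4%, 30.8% and 36.5% in cold water and 21.8%, 20.99% and 35.7% in control for intron 4. Srpk1, another SR protein kinase, had 3.61%, 1.99% and 8.83% in cold water and 0.917%, 0.371% and 1.23% in control. Srsf6, an SR protein, had 20.0%, 18.4% and 25.0% in cold water and 11.4%, 16.8% and 17.96% in control. Hnrnpk had 6.80%, 1.93% and 1.504% in ENSMUST00000176609 in cold water and 0.158%, 0.259% and 0.655% in control. U2af2, which reads the 3′ end of introns, had 4.61%, 6.65% and 5.17% in cold water and 2.47%, 2.72% and 4.23% in control. In these members of Srpk1, Srsf6, Hnrnpk and U2af2 the groups did not overlap, and limma adjusted p-values were 0.766 to 0.893.

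Among other members named by the same rule, those of Clk2, Srsf1 and Srsf3 overlapped between the groups. Clk2, a kinase related to Clk1, had 66.9%, 23.1% and 47.5% in cold water and 34.6%, 26.5% and 39.5% in control. The SR protein gene Srsf1 had 1.46%, 1.63% and 5.86% in cold water and 0.254%, 2.66% and 0.273% in control. Srsf3, of the same family, had 9.38%, 16.9% and 15.3% in cold water and 10.3%, 8.55% and 8.93% in control. Bcas2, of the Prp19 complex, had members on both sides, both without overlap. ENSMUST00000136937 held 24.9%, 38.4% and 19.02% in cold water and 18.7%, 14.3% and 10.5% in control, and ENSMUST00000139489 held 20.5%, 8.69% and 0 in cold water and 22.7%, 35.4% and 34.5% in control. The lower members of Clk1 and Bcas2 were chosen after their values were seen, and none of these differences was called. Counted by intron, the groups did not overlap for intron 4 of Bcas2 but did for intron 5, kept by 2 transcripts. Intron 5 was kept in 45.8%, 47.5% and 19.3% in cold water and 41.7%, 50.2% and 45.5% in control.

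**Figure D5:**
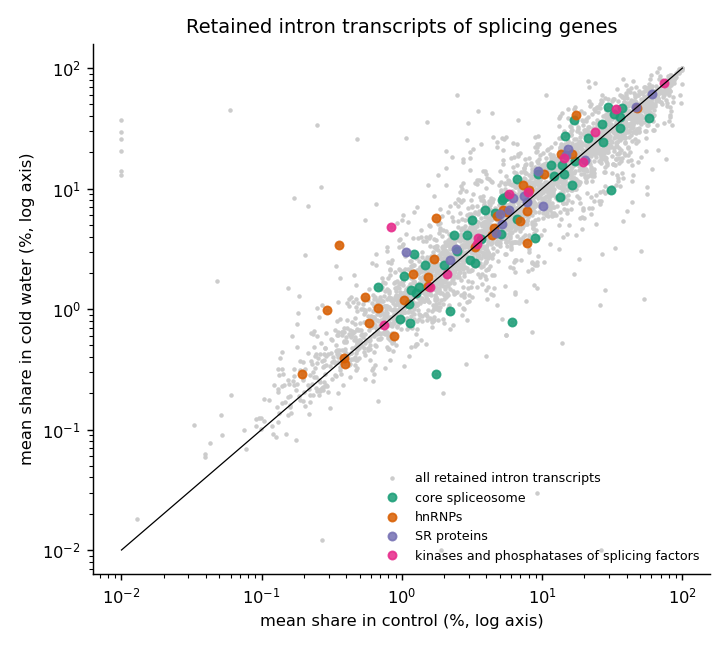
Mean share in cold water against mean share in control for each retained intron transcript, in percent on log axes; means below the lower end are drawn at it, and the line marks equal shares. Coloured points are members of splicing genes, 13 of 17 for SR proteins and 22 of 31 for hnRNPs with a higher log2 odds in cold water, against 1771 of 3237 over all members.

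Among genes for cold-inducible and other RNA-binding proteins, 7 of 12 members were higher and 5 lower. Cirbp, the cold-inducible RNA-binding protein, was lower: ENSMUST00000147190 held 5.49%, 6.78% and 5.88% in cold water and 11.8%, 11.7% and 11.8% in control, with little spread in either group. Its log2 odds difference of -1.02 (SE 0.34) was not called (limma adjusted p = 0.893). Its Cirbp coding partner held 70.8% of the count on average in cold water and 61.5% in control. ENSMUST00000147190 was among the members found to keep neither a whole intron nor part of an intron of a coding transcript. Intron 6 of Cirbp, kept by other transcripts, overlapped between the groups. It was kept in 27.2%, 16.3% and 16.1% in cold water and 29.0%, 18.7% and 25.5% in control. Of 23 members in the list of nonsense-mediated decay genes 15 were higher and 8 lower (median 0.35). That list included the noncoding Gas5, which supplied 13 of the 23, and shares within a gene are not independent. Smg5, of the decay machinery, had 13.5%, 13.8% and 10.9% in cold water and 3.96%, 6.63% and 5.99% in control, without overlap and not called.

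Of 22 interferon response members 16 were higher and 6 lower (median 0.22), and 5 were higher and 2 lower without overlap, together 31.8%. The 105 members of cytosolic ribosomal protein genes divided 51 higher and 54 lower (median -0.01), with 10 higher and 2 lower without overlap (11.4%). The 21 of enterocyte genes divided 10 and 11 (median -0.0034), the 10 of nuclear retention and O-GlcNAc genes 5 and 5 (median 0.10), and the 6 of clock genes 3 and 3 (median -0.03). None of these was called. Irf7, a master factor of the interferon response, had 5.64%, 3.37% and 7.49% in cold water and 0.0787%, 0.149% and 2.77% in control. Nr1d2, a repressor of the clock, had 6.20%, 7.29% and 4.62% in cold water and 2.39%, 3.30% and 3.01% in control. Both were without overlap and neither was called. Counted by intron, intron 3 of Irf7, kept by its member and other transcripts, overlapped between the groups. It was kept in 7.16%, 6.02% and 12.3% in cold water and 3.29%, 3.92% and 6.24% in control.

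A small class of introns is removed by the minor spliceosome, which reads its own 5′ signal. The letters ATATCC or GTATCC at the first 6 bases were searched in the introns kept, on the coding strand, and 15 of 2057 (0.729%) held them, against 0.625% below 1 FPKM and 0.780% at a count of 0. These 15 lay in 13 transcripts of 13 genes, of which 5 had a higher and 8 a lower share in cold water, with limma adjusted p-values of 0.893 to 0.998. An example ending in AG and one ending in AC follow, with the first 6 and last 2 bases in capitals: intron 2 of 6 of Drap1 (chr19:5424276-5424360, minus strand), a repressor of transcription, and intron 2 of 4 of Spc24 (chr9:21757395-21757684, minus strand), of the kinetochore.
Drap1 intron 2: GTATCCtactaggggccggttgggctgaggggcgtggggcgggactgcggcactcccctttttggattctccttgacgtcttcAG
Spc24 intron 2: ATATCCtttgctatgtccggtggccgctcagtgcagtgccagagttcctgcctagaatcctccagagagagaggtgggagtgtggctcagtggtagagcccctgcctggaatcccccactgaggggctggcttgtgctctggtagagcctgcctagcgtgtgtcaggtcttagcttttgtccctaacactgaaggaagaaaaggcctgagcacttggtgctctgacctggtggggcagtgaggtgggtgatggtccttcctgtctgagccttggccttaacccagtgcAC
The Spc24 member held 4.51%, 6.24% and 18.1% in cold water and 48.2%, 25.8% and 14.0% in control, and the Drap1 member 4.01%, 12.7% and 1.27% in cold water and 10.1%, 4.87% and 8.32% in control. Both overlapped between the groups.

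Shares varied between libraries of the same group. The median range over the 3 libraries was 3.75 percentage points in cold water and 3.74 in control, and the median coefficient of variation 33.5% in cold water and 36.0% in control, against 23.9% in cold water and 27.4% in control for 3520 coding transcripts of the same genes, whose median share was higher (34.3%). In 219 members 1 library lay more than 20 points from the nearest of the other 5, and in 33 more than 50 points. Those 33 fell on every library: 8, 5 and 5 on the cold water libraries and 5, 6 and 4 on the control libraries.

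Some members were present in a few libraries only. Besides Gpt, 5 members had a count of 0 in all 3 control libraries. Gapdh, a glycolytic enzyme with many near-identical pseudogenes, had 76.8% of its count in ENSMUST00000147954 in cold water library 1 and 0 in the other 5. Hmgb1 had 39.0% in that library alone, and Relb had 61.3% and Aplp1 88.8% in cold water library 3 alone. Gas5 had 0, 23.4% and 18.2% in ENSMUST00000160152 in cold water. Without cold water library 1 this Gas5 transcript passed the threshold (limma adjusted p = 0.0254), and with all 6 libraries it did not (limma adjusted p = 0.893). The 2 members at 0 in all cold water libraries were those of Anxa11, at 0, 78.8% and 0.0423% in control, and Samm50, at 5.65%, 0.0799% and 0 in control. Anxa2, which binds membranes in a calcium-dependent way, had 73.3%, 4.10% and 69.1% in cold water and 80.8%, 79.3% and 73.8% in control, so that cold water library 2 stood apart from the other 5.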

How the data were processed

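Total RNA depleted of ribosomal RNA was sequenced in paired ends, per the labels' protocols. The authors deposited estimated counts per transcript, given as whole numbers, and FPKM values. The submitters' processing notes name StringTie 1.3.4d and HISAT2 2.0.4, then cutadapt 1.9 and FastQC 0.10.1, with no role stated; build and strandedness were not given in the sources used here. Transcripts of a gene share reads, so a transcript's count, a count of 0 included, is an estimate. The members and gene lists were chosen with earlier results of these data known.

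Here abundance was tested with edgeR 4.0.16 (TMM, quasi-likelihood) on counts, and shares with limma 3.58.1 (eBayes with trend) on log2((c + 4)/(G - c + 4)), c being the transcript's count and G its gene's. Both were fitted to every transcript that averaged 1 FPKM or more, with Benjamini-Hochberg adjustment and a threshold of 0.05. The fits were first run on simulated counts drawn independently for each transcript. Those counts lacked reads shared between transcripts of a gene, so they cannot show the error rate of the calls here. DESeq2 1.42.0 was an alternative. Genes were summed by symbol. An intron entered the set of kept introns when it lay whole in an exon of a retained intron transcript and was an intron of a coding transcript in GENCODE M21. The percentages by intron sum every transcript of the gene, of any type, that holds the intron whole in an exon. They are set against the transcripts that splice it exactly, so coding transcripts can count as keeping it.

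Members were named by rule: those past either threshold; those without overlap in share with the 12 smallest p-values in each direction; the 10 most abundant; the 10 highest and 5 lowest shares; the 3 on either side of 1 FPKM; and up to 3 per gene list. A member named by the rule is not reported here. Single-library, leading-transcript and intron examples were chosen after their values were seen. Floors cover counting error only.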

Additional observations from a re-analysis of the deposited data

How the results depend on the processing

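The number of members called by share was 1 under 8 other filters, pseudocounts and definitions of the share, 0 with the untransformed share and with the arcsine, 3 with edgeR's diffSpliceDGE, and 1 to 3 when a library was left out (2 without cold water library 1, 3 without control library 2). Gpt held in 15 of 18 alternatives and in all 6 that leave out a library, with adjusted p (limma, or edgeR for diffSpliceDGE) from 0.000522 to 0.442 over all 18. By abundance, 0 members were called in edgeR under every filter and scaling tried and with any library left out, against 87 by DESeq2, 1 by limma on log2(FPKM + 1) and 1 by limma on log2(FPKM + 0.1). On gene sums 1 was called, against 8 by DESeq2 and 0 with any library left out. The counts under these alternatives, by share or by abundance, are given without those over all transcripts or genes. The cold water minus control difference in the share of the whole type was -0.0421 percentage points. It was 0.06 by summed FPKM, and -0.2297 to 0.0743 with a library left out (0.0291 without control library 1, 0.0743 without control library 2). The cause was not tested. The replicate numbers are not said to pair the libraries. Same-numbered libraries correlated at -0.0349, 0.0300 and 0.0779 in their deviations of log2 CPM, and differently numbered ones at -0.0855 to 0.0568. With 3 libraries per group these values cannot decide whether the libraries were paired. With the replicate block, 0 members were called by share (Gpt at an adjusted p of 0.154 in limma), 0 by abundance and 0 genes. Counts of 0 and low counts limit what the smallest shares can show.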
